A study of Rattus norvegicus with 8 samples.

Results

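The genes described here are 9 genes of cytotoxic lymphocytes measured in whole rat blood: the granzymes Gzma, Gzmb, Gzmk and Gzmm, the pore former Prf1, the granule protein Nkg7, the receptors Klrb1a and Klrk1, and the cytokine receptor chain Il2rb. They were picked as cytotoxic granule genes and natural killer receptors, and every probe set whose platform annotation gave exactly 1 of these symbols was taken. All 9 genes were found, with 10 probe sets among the 31042 of the array, since Gzmb has 2. A further probe set that pairs Gzmb with a second locus was left out. The samples were 4 male Wistar rats on a high-fat diet and 4 on a normal diet, each fed its diet for 8 weeks; the rats were bought at 7 weeks of age and all ate the normal diet during acclimation. Blood was collected on day 56 after an overnight fast, and its total RNA was hybridised to Affymetrix 3' expression arrays, 1 per animal. Each diet group held 10 animals, of which 4 have arrays here, and another diet, high-fat with mulberry leaf powder, is not analysed here. What was compared is high-fat feeding against normal feeding.

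Natural killer cells and cytotoxic T cells kill infected or transformed cells by releasing granules onto them. Perforin opens pores in the target membrane, and granzymes, a family of serine proteases, pass into the target and cleave its proteins. Surface receptors such as NKG2D, the product of Klrk1, help decide when the granules are released, and interleukin 2 and interleukin 15 keep the cells alive and armed through a receptor that contains the Il2rb chain. In blood these transcripts come mostly from a part of the white cells, so a level in whole blood cannot tell fewer such cells apart from less RNA per cell.

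The deposited levels read as log2 intensities, and they hardly differ from array to array: a typical probe set had an SD of 6.07e-06 across all 8 animals (the median of all probe sets). The differences are therefore compressed and are not log2 ratios of RNA amount. They are given in deposited units and as within-group SDs, that is, divided by the pooled SD of that probe set within the diets. Levels of different genes are not set against each other, because probes differ in brightness. High-fat replicate 4 stood apart on the cytotoxic genes: it held the highest value of 9 of the 10 probe sets, while over all probe sets it was the highest array for 12.6%. The differences and correlations of the cytotoxic genes are given with and without it, as are the values of other genes that move by over 1.5 times.

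Within this compressed table the cytotoxic genes were among the most variable transcripts of these animals. The SD over the 8 arrays lay at or above the 99.4th percentile of all probe sets for 9 of the 10 probe sets, from 7.57e-04 for Il2rb to 0.0215 for the dimmer probe set of Gzmb. The exception was Klrk1, with an SD of 1.97e-05 at the 81.7th percentile. The same 9 probe sets lay at or above the 99.0th percentile when high-fat replicate 4 was left out, and Klrk1 at the 82.6th. Such SDs were not particular to the cytotoxic genes. Among the markers of other blood cells read below, the percentile ran from 0.0193 for Hbb to 99.9 for Csf1r and Ahsp. These SDs describe the deposited values, since compression may differ between probe sets.

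Gzma encodes a granzyme that cleaves after basic residues. Its levels were 6.9015, 6.8987, 6.8984 and 6.9177 in high-fat replicates 1 to 4, against 6.8967, 6.8979, 6.8966 and 6.9051 in normal replicates 1 to 4. High-fat replicate 4 was highest and normal replicate 4 next, the other 6 animals lay between 6.8966 and 6.9015, and the diets overlapped. The high-fat minus normal difference was 0.00498 ± 0.00473 (SE, n = 4 and 4), or 0.701 within-group SDs, and 0.131 without high-fat replicate 4.

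Gzmb encodes the granzyme that cleaves after aspartate and activates caspases. On its brighter probe set the levels were 6.8483, 6.8487, 6.8465 and 6.8643 in high-fat replicates 1 to 4, against 6.8458, 6.8469, 6.8453 and 6.8501 in normal replicates 1 to 4. The dimmer probe set read 6.5642, 6.5642, 6.5654 and 6.6221 in the high-fat animals, against 6.5562, 6.5620, 6.5571 and 6.5721 in the normal animals. Both put high-fat replicate 4 first and normal replicate 4 second, and on both the diets overlapped. The differences were 0.814 and 0.817 within-group SDs, and 0.447 and 0.485 without high-fat replicate 4. As 2 readings of 1 gene, the probe sets followed each other with Pearson r = 0.993 (exact permutation p = 6.45e-04) and Spearman rho = 0.810 (exact permutation p = 0.0218, n = 8). Pearson r was 0.757 without the 2 arrays farthest from the median, and 0.882 without high-fat replicate 4. The agreement of these 2 probe sets is set beside that between different genes below.

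Gzmk encodes a further granzyme of basic specificity, and Gzma and Gzmk are neighbouring genes in the RefSeq annotation. Gzmk levels were 8.2983, 8.2989, 8.2972 and 8.3139 in high-fat replicates 1 to 4, against 8.2961, 8.2985, 8.2961 and 8.3011 in normal replicates 1 to 4. The order of the animals at the top was again high-fat replicate 4 and then normal replicate 4. The difference of 0.00411 ± 0.00390 (SE, n = 4 and 4), or 0.700 within-group SDs, was 0.0789 without high-fat replicate 4.

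Gzmm encodes a granzyme that cleaves after long uncharged residues such as methionine. It read 8.1635, 8.1636, 8.1637 and 8.1669 in the high-fat animals, against 8.1628, 8.1633, 8.1633 and 8.1644 in the normal animals. The first 3 high-fat animals were nearly equal, high-fat replicate 4 lay above them, and normal replicate 4 lay between. The difference was 0.743 within-group SDs, and 0.214 without high-fat replicate 4.

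Prf1 encodes perforin. Its levels were 8.7112, 8.7126, 8.7118 and 8.7209 in high-fat replicates 1 to 4, against 8.7109, 8.7112, 8.7097 and 8.7151 in normal replicates 1 to 4. The diets overlapped, with the same 2 animals on top. The difference of 0.00243 ± 0.00240 (SE, n = 4 and 4), or 0.671 within-group SDs, was 0.0958 without high-fat replicate 4. Nkg7, a membrane protein of cytotoxic granules known in mice to be needed for their release, read 7.7307, 7.7295, 7.7303 and 7.7381 in the high-fat animals, against 7.7291, 7.7307, 7.7290 and 7.7310 in the normal animals. High-fat replicate 4 was again the highest, and the other 7 animals fell within a narrow band. The difference was 0.745 within-group SDs, and 0.218 without that animal.

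**Figure D1:**
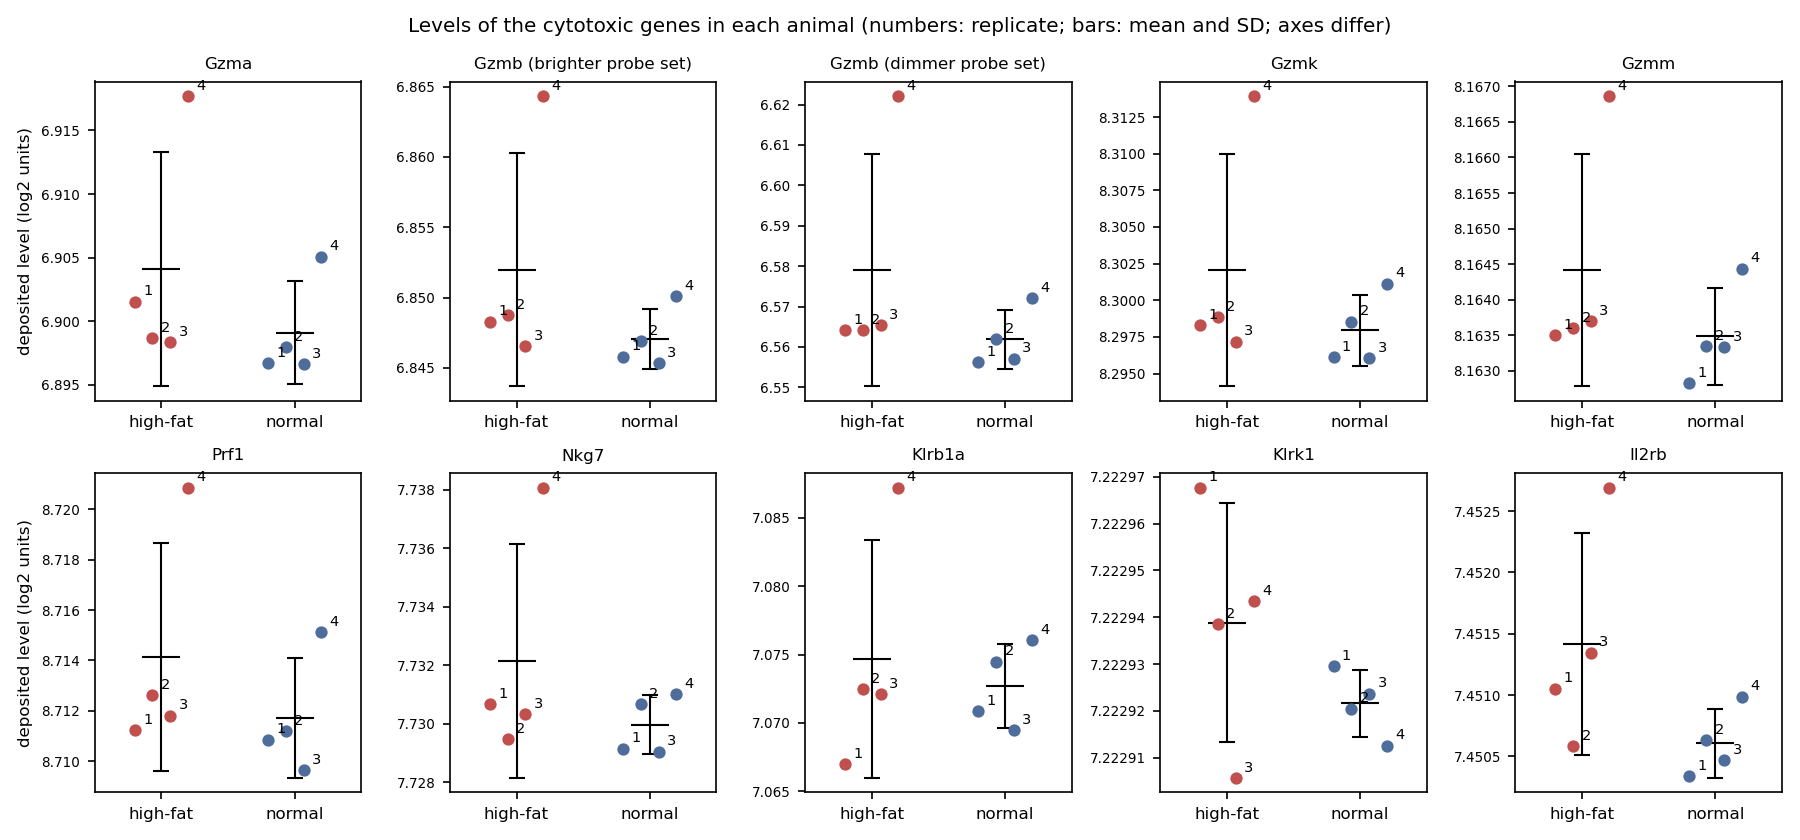
Deposited level (log2 units, each panel on its own axis) of the 10 probe sets of the cytotoxic genes in each high-fat and normal animal. Points are animals with their replicate numbers, and bars are the mean and SD of 4 animals. High-fat replicate 4 is the highest point in every panel except that of Klrk1, where high-fat replicate 1 is.

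Klrb1a encodes NKR-P1A, a lectin-like receptor and a standard surface marker of rat natural killer cells. Its levels were 7.0670, 7.0725, 7.0721 and 7.0872 in high-fat replicates 1 to 4, against 7.0708, 7.0745, 7.0695 and 7.0760 in normal replicates 1 to 4. The high-fat animals thus held both the highest and the lowest value of this gene. Its difference of 0.303 within-group SDs was -0.716 without high-fat replicate 4.

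Klrk1 encodes NKG2D, an activating receptor for stress-induced ligands. It read 7.222968, 7.222939, 7.222906 and 7.222943 in the high-fat animals, against 7.222930, 7.222920, 7.222924 and 7.222913 in the normal animals. These values span 6.21e-05, and high-fat replicate 1, not 4, was the highest, while high-fat replicate 3 was the lowest and the other 3 high-fat animals lay above every normal animal. The difference of 1.73e-05, or 0.921 within-group SDs, was 0.771 without high-fat replicate 4. Centring each array on its median subtracts 6.60e-05 from the difference of every probe set, more than the whole difference of Klrk1, and put it at -4.87e-05, so its sign depends on the scaling by construction.

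Il2rb encodes the chain shared by the receptors for interleukin 2 and interleukin 15. Its levels were 7.4511, 7.4506, 7.4513 and 7.4527 in high-fat replicates 1 to 4, against 7.4503, 7.4506, 7.4505 and 7.4510 in normal replicates 1 to 4. In this gene 3 of the 4 high-fat animals lay above every normal animal, and high-fat replicate 2 lay among them. The difference was 8.12e-04 ± 4.46e-04 (SE, n = 4 and 4), or 1.21 within-group SDs, with a two-sided exact permutation p = 0.0857, where the smallest that 4 against 4 animals allow is 0.0286. Without high-fat replicate 4 it was 3.88e-04 and 1.19 within-group SDs, so the standardised difference hardly moved when this animal was left out.

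The diets did not separate any cytotoxic gene. Of the 10 probe sets 0 passed a limma adjusted p of 0.05, against 0% of all 31042 probe sets, and all 10 had an adjusted p of 1. Counted at an unadjusted limma p under 0.05 there were 0 of 10 and 699 of 31042, while the exact permutation test, with a smallest p of 0.0286, could pass after adjustment over this table only if most probe sets reached that p. The smallest unadjusted limma p among them was that of Il2rb, 0.113. All 10 high-fat means were above the normal means, where 46.6% of all probe sets had a higher high-fat mean. These 10 values are not independent, since the genes followed each other over the animals. The median probe set of the cytotoxic genes stood at 0.744 within-group SDs, against -0.0479 over all probe sets. Without high-fat replicate 4 the median was 0.216 against -0.0491, with 9 of 10 above and Klrb1a below.

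In no cytotoxic probe set did all high-fat values lie above all normal values, or all below, which held for 0.586% and 0.857% of all probe sets. Leaving out normal replicate 4 brought 4 probe sets without overlap, those of Gzma, Gzmm and Prf1 and the dimmer one of Gzmb, all with higher high-fat values, against 1.38% of all probe sets. Leaving out high-fat replicate 2 brought Il2rb alone (1.30% of all) and leaving out high-fat replicate 3 brought Klrk1 alone (1.28%). Without high-fat replicate 4 there was none.

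**Figure D2:**
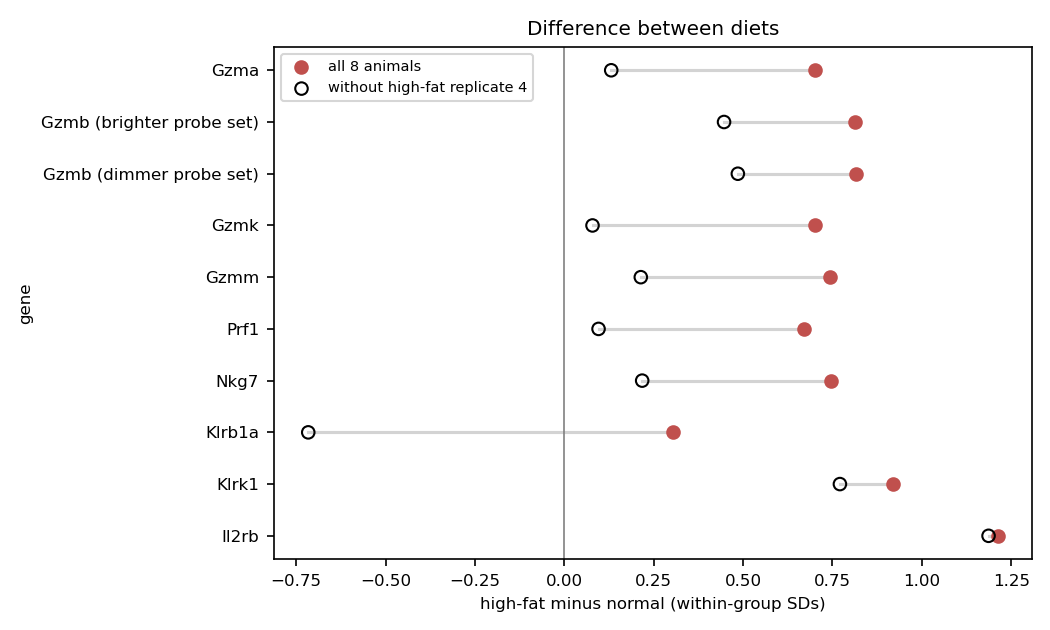
High-fat minus normal difference of each probe set in within-group SDs (horizontal axis), for all 8 animals (filled) and without high-fat replicate 4 (open). All filled points lie above 0, at most 1.21, and the open points lie between -0.716 for Klrb1a and 1.19 for Il2rb, with the granzymes, Prf1 and Nkg7 at or under 0.485.

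Over the 8 animals the cytotoxic genes varied together, with Klrk1 excepted on the deposited scale. Klrk1 spanned only 6.21e-05, while the array medians ran from 6.6002927 to 6.6005098. The order of the animals for Klrk1 and its r therefore depend on the scaling. Each gene was represented by its brighter probe set, and 36 pairs were compared. Pearson r had a median of 0.933 and passed an adjusted exact permutation p of 0.05 in 27 of the 36 pairs, and Spearman rho passed in 14 with a median of 0.762. The share of passing pairs among other genes was not analysed here, so these counts have no background beside them. High-fat replicate 4 was the highest array in 8 of the 9 genes, and far fewer pairs passed without it, as given below. The 8 pairs with Klrk1 had r from -0.0751 to 0.306 and none passed, whereas the 28 pairs without Klrk1 had r from 0.808 to 0.996. The 1 pair of these that did not pass on r was Klrb1a with Il2rb (r = 0.808, adjusted exact permutation p = 0.0736). After each diet's mean was subtracted the median r was 0.941 and 28 pairs passed. The permutation p behind that count is only approximate, since subtracting the means ties the 4 values of a diet to each other.

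The agreement was closest among the granzymes and perforin. Nkg7 had r with them from 0.933 for Prf1 to 0.981 for Gzmk. Gzmb and Gzmk had r = 0.996 (exact permutation p = 1.24e-04, adjusted 0.00446), about as high as the 2 probe sets of Gzmb with each other. The rho of Gzmb and Gzmk was 0.976 (exact permutation p = 3.97e-04, adjusted 0.0137), above the 0.810 of the 2 probe sets. Without high-fat replicate 4 the r of Gzmb and Gzmk was also the higher, 0.948 against 0.882. Gzma and Prf1 had r = 0.970 (exact permutation p = 0.00327, adjusted 0.00982) and rho = 0.929 (p = 0.00223, adjusted 0.0161). The 10 pairs among the granzymes and perforin had r from 0.967 to 0.996.

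These correlations were smaller without high-fat replicate 4. Without it the median r of the 36 pairs was 0.608, and 3 pairs passed with 7 arrays: Gzmb with Gzmk (r = 0.948), Gzma with Gzmb (r = 0.892) and Gzmb with Prf1 (r = 0.889). All 10 pairs of granzymes and perforin were still between 0.800 and 0.948. Without the 2 arrays farthest from the median, which for these pairs were high-fat replicate 4 and normal replicate 4, they lay between 0.433 and 0.898 over 6 arrays. Gzmb with Gzmk then had r = 0.898 and Gzma with Prf1 r = 0.433. For Gzma with Klrb1a the value turned from 0.876 (exact permutation p = 0.0296, adjusted 0.0395; rho = 0.571, p = 0.151, adjusted 0.202) to -0.464, so that relation rests on those 2 arrays. Once high-fat replicate 4 was out, the receptors were less closely tied to the granzymes and perforin than those genes were to each other. Klrb1a had r = 0.326 with Gzma and 0.686 with Prf1, and Il2rb had 0.397 with Gzmb and 0.719 with Nkg7. Nkg7, itself a granule gene, had r from 0.596 with Prf1 to 0.760 with Gzma, so its values overlapped those of the receptors. Whether granule genes and receptors differ in this was not tested.

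**Figure D3:**
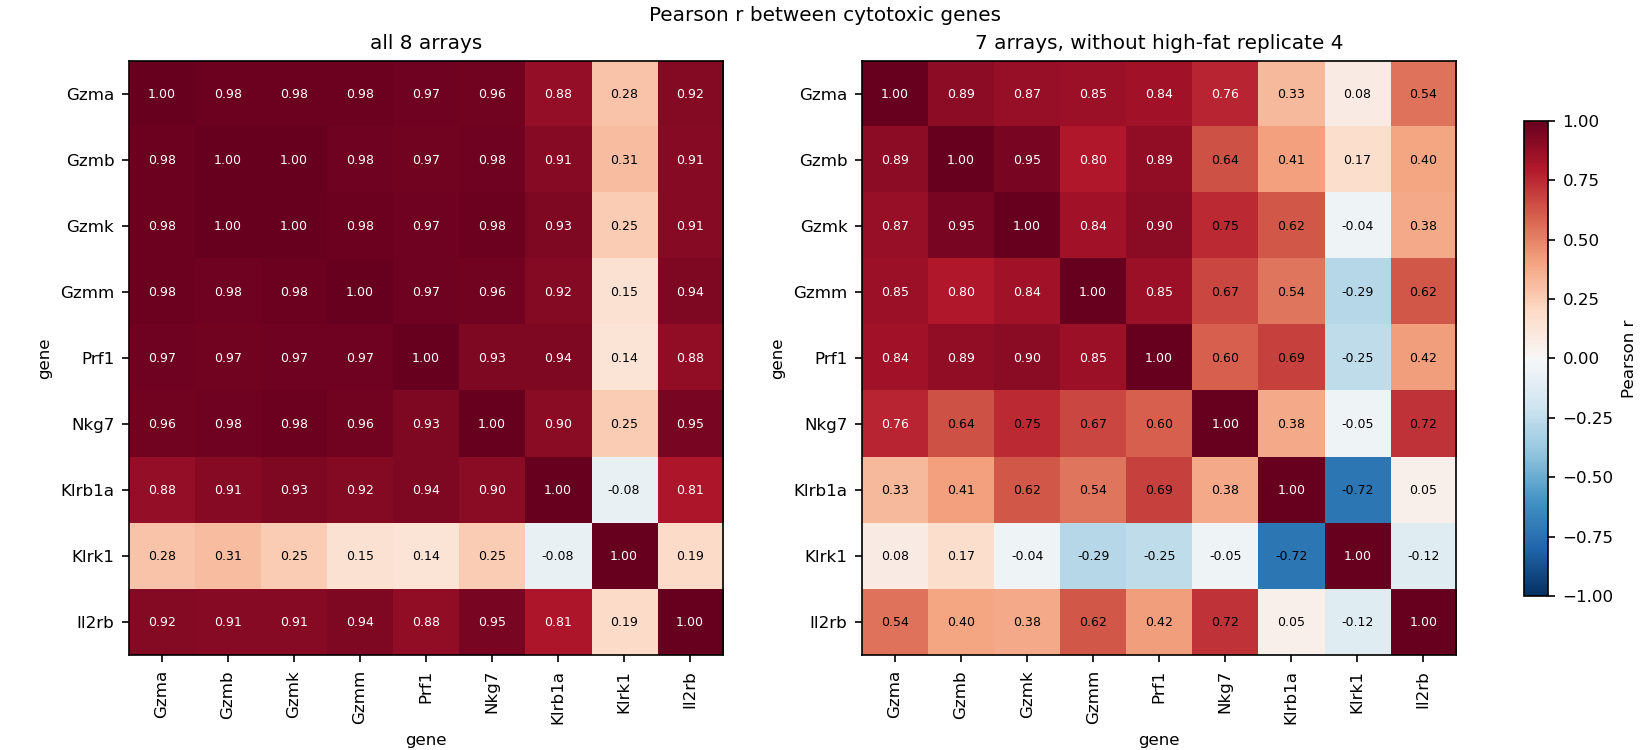
Pearson r between the 9 cytotoxic genes over all 8 arrays (left) and over the 7 arrays without high-fat replicate 4 (right), 1 cell per pair and coloured by r. Granzymes and Prf1 keep r between 0.800 and 0.948 on the right. The row of Klrk1 holds values from -0.721 to 0.174 there, which depend on the scaling.

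**Figure D4:**
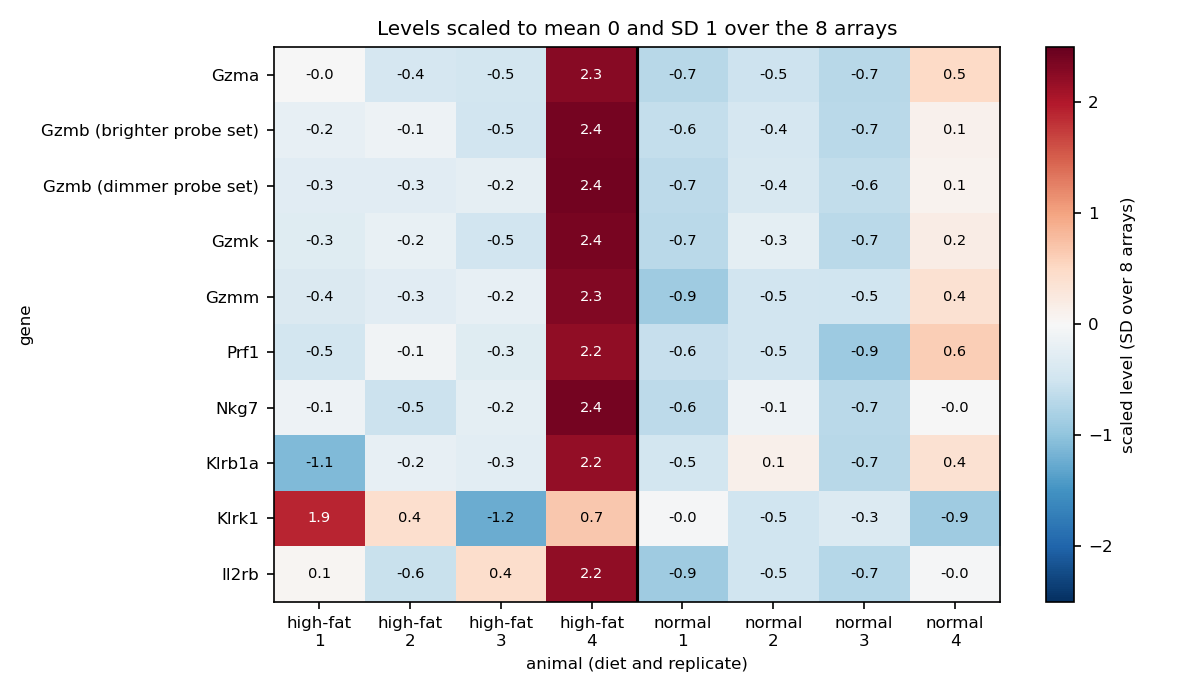
Levels of the 10 probe sets as SDs from that probe set's mean across the animals, with high-fat animals left of normal animals. High-fat replicate 4 is the highest in 9 of 10 rows, and normal replicate 4 is the next highest in 8 of 10 rows. The row of Klrk1 has its own order, which depends on the scaling.

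Since the granule genes varied together, the sequences before their starts are shown. RefSeq promoter windows of build GRCr8 were found for 8 of the 9 genes, Il2rb excepted. The 250 bases before the start of 5 of them follow. These are 3 granzymes and perforin, which followed each other, and Klrk1, which did not on the deposited scale. Capitals mark the core letters bound by RUNX factors, TGTGGT or ACCACA on the other strand, and the core bound by T-box factors, GGTGTGA or TCACACC. The motifs do not overlap each other in these windows.
Gzma, chr2:46485697-46485946, minus strand: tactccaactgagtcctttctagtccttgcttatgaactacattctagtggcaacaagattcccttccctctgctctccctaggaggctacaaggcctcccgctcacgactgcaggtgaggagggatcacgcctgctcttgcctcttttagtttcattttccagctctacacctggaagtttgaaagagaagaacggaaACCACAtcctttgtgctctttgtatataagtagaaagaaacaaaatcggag
Gzmb, chr15:34462470-34462719, minus strand: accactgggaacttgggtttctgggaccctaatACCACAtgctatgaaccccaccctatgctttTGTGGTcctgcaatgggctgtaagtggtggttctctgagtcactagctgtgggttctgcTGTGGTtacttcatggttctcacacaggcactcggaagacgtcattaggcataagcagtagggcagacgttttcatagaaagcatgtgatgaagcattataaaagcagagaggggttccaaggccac
Gzmm, chr7:10667257-10667506, minus strand: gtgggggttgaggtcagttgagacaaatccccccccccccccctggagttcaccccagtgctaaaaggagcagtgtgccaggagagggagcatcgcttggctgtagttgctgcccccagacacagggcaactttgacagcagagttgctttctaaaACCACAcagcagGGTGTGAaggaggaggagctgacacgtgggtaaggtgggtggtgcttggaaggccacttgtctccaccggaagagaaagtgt
Prf1, chr20:29788790-29789039, plus strand: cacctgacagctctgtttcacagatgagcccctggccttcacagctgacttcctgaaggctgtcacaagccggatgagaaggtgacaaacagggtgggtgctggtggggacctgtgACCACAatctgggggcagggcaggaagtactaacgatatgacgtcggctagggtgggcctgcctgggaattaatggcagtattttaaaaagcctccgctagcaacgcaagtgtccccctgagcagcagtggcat
Klrk1, chr4:164778383-164778632, minus strand: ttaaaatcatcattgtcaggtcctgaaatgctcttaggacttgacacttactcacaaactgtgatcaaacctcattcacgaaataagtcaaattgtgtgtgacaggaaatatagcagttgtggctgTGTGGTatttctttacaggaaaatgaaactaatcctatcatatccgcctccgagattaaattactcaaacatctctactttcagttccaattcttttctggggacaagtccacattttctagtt
RUNX and T-box factors are known to drive the programme of cytotoxic lymphocytes. The RUNX letters stood in 7 of the 8 windows, all except that of Klrb1a, and 3 times in that of Gzmb, while 14.5% of all 33469 RefSeq windows of this length held them. The T-box letters stood in 2 of the 8, those of Gzmk and Gzmm, against 3.22% of all windows. The motifs were chosen after the windows had been read, and a match of letters is not a binding site. All 5 windows shown hold the RUNX letters. Klrb1a, whose window does not, had r = 0.876 with Gzma and 0.936 with Prf1 over the 8 arrays. Without high-fat replicate 4 these were 0.326 and 0.686. Klrk1, which had its own order over the animals on the deposited scale, holds the RUNX letters too.

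Other cytotoxic genes were read from wider lists, beside a median over all 14217 genes of -0.0374 within-group SDs (-0.0637 without high-fat replicate 4). Centring each array on its median lowers every difference by 6.60e-05, so the sign of a smaller positive difference depends on the scaling. Among the genes given in within-group SDs below, this holds for Klrc2 (1.52e-05), Klrc1 (3.60e-05), Prdm1 (8.47e-06), Cish (4.72e-06) and Il2rg (1.05e-05). It does not hold for Runx3 (8.99e-05). Counts of higher and lower genes and list medians are on the deposited scale. Of the other granule and killing genes 12 of 16 were measured, 7 with a higher and 5 with a lower high-fat mean, and 0 passed limma. Among them the granzyme Gzmf stood at -0.809 within-group SDs and the death ligand Tnfsf10 at -0.687. In deposited units these differences were only -4.73e-06 and -2.43e-06. The list's median was 0.262, and -0.305 without high-fat replicate 4, with 5 higher and 7 lower. Of the other natural killer receptors and adaptors 17 of 34 were measured, 12 higher and 5 lower, and 0 passed. Klrc2 and Klrc1, receptors of the NKG2 family, stood at 1.92 and 0.908 within-group SDs, and Klrc1 at 0.541 without high-fat replicate 4. High-fat replicate 4 held the highest value in 13 of these 17 genes, among them Ncr1, the receptor NKp46 that marks natural killer cells. The median of this list was 0.263 within-group SDs, and -0.159 without that animal, with 7 higher and 10 lower.

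Transcription factors of cytotoxic lymphocytes were measured for 9 of 12 genes, 5 higher and 4 lower, and 0 passed limma. Prdm1, which encodes Blimp-1, stood at 2.26 and Runx3, a factor of the killer cell programme, at 1.14 within-group SDs. The median was 0.449, and -0.256 without high-fat replicate 4, with 3 higher and 6 lower. Tbx21, which encodes T-bet, had no probe set with that symbol alone. The r of the 9 factors with the mean scaled level of the cytotoxic genes ran from -0.00281 for Ets1 to 0.959 for Zeb2. Over the 7 arrays without high-fat replicate 4 the range ran from -0.574 for Nfil3 to 0.875 for Runx3, and Eomes, at 0.820 over 8 arrays, stood at -0.250. Among the cytokines and chemokines of these cells 8 of 8 were measured, 5 higher and 3 lower, and 0 passed. Lta, a cytokine of the tumour necrosis factor family, stood at -1.66 and the growth factor Csf2 at -1.05 within-group SDs. In deposited units these were only -2.03e-06 and -4.64e-06. The list's median was 0.327 within-group SDs, or -0.448 with 3 higher and 5 lower when high-fat replicate 4 was left out. In the interleukin 2 and 15 pathway 11 of 12 were measured, 5 higher and 6 lower, and 0 passed. Cish, a feedback inhibitor of this signal, stood at 1.35, or 3.11 without high-fat replicate 4, and the common receptor chain Il2rg at 1.04, with a median of -0.0232, or 0.0305 with 6 higher and 5 lower without high-fat replicate 4. High-fat replicate 4 was the highest animal in 2 of these 11 genes.

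The genes whose pattern was most like that of the cytotoxic genes were picked by Pearson r with their mean scaled level over 8 arrays. The first 5 of 14208 other genes were Xcl1 (r = 0.982), Agpat4 (0.982), Ccnd3 (0.975), Tbc1d8 (0.967) and Cst7 (0.967). Xcl1 is a chemokine of natural killer and cytotoxic T cells, and Cst7 encodes cystatin F, an inhibitor of the proteases that activate granzymes. Ccnd3 encodes cyclin D3, and Agpat4 a lipid acyltransferase. Without high-fat replicate 4 their r was 0.812, 0.772, 0.846, 0.640 and 0.572 in the same order. The median r over all other genes was -0.0305, and 92 of them, 0.648%, had r over 0.9. These r are on the deposited scale. Ccnd3 ran only from 8.049775 to 8.0497944 over the animals, a narrower range than that of the array medians, 6.6002927 to 6.6005098. Its r therefore depends on the scaling. How these r change with centring was not analysed here.

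Markers of other blood cells were read in the same animals. The mean scaled level of the 9 cytotoxic genes was -0.0653, -0.219, -0.360 and 2.12 in high-fat replicates 1 to 4, against -0.606, -0.349, -0.652 and 0.135 in normal replicates 1 to 4. Monocyte markers showed the same animal on top: their 9 measured genes of 10 ranged from -0.486 to 1.87 in high-fat animals, against -0.432 to -0.188 in normal animals, with high-fat replicate 4 at 1.87 and highest in 8 of 9 genes. Cd14 and Csf1r, which define monocytes, were among those 8. T cell markers did not: 12 measured genes of 14 ranged from -0.465 to 0.315 in high-fat animals, against -1.18 to 1.04 in normal animals, high-fat replicate 4 stood at -0.465, and it was the highest animal in 0 of the 12, Cd8a and Cd8b included. B cell markers ranged from -1.12 to 0.842 in high-fat animals and from -0.959 to 1.09 in normal animals (7 genes of 10), again with high-fat replicate 4 highest in 0 genes. Platelet markers (9 of 10 genes) stood lowest in high-fat replicate 4, at -1.48, in a range of -1.48 to 0.589 for high-fat animals and -0.332 to 0.537 for normal animals. Neutrophil markers ranged from -0.997 to 0.627 in high-fat and from -0.622 to 0.662 in normal animals (8 of 10 genes). Erythroid markers ranged from -0.383 to 0.933 in high-fat and from -0.553 to -0.296 in normal animals (8 of 10 genes). No marker is listed at 0, since the deposited values start at 5.19. The part of cell composition in the cytotoxic levels was not tested.

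No marker passed limma. The markers with the smallest unadjusted p were Cd3d (-1.05 within-group SDs) and Cd28 (-0.876) for T cells, Cd79b (-0.488) and Bank1 (-0.384) for B cells, Cx3cr1 (0.840) and Fn1 (0.726) for monocytes, and Camp (0.519) and Mmp9 (0.492) for neutrophils. For platelets they were Pf4 (-0.735) and Ppbp (-0.685), and for red cells Hemgn (2.63) and Slc4a1 (1.71). When high-fat replicate 4 was left out these stood at -0.949 for Cd3d, -0.693 for Cd28, -0.286 for Cd79b, -0.195 for Bank1, 0.436 for Cx3cr1, 0.213 for Fn1, 0.185 for Camp, 0.126 for Mmp9, -0.406 for Pf4, -0.230 for Ppbp, 2.79 for Hemgn and 3.65 for Slc4a1. In counts, 2 T cell markers were higher and 10 lower, 1 B cell marker higher and 6 lower, 9 monocyte markers higher and 0 lower, 5 neutrophil markers higher and 3 lower, 3 platelet markers higher and 6 lower, and 6 erythroid markers higher and 1 lower, with means of Hbb equal within 1e-12. Leaving that animal out, the counts of higher and lower were 1 and 11 for T cells, 0 and 7 for B cells, 5 and 4 for monocytes, 4 and 4 for neutrophils, 7 and 2 for platelets and 8 and 0 for red cells. These counts are on the deposited scale. Cx3cr1 (1.07e-05), Camp (2.71e-05), Mmp9 (3.33e-05) and Slc4a1 (4.13e-05) differ by less than the 6.60e-05 that centring subtracts, so their signs depend on the scaling. The differences of Fn1 (0.00266) and Hemgn (0.00360) are larger than that. Those of Cd28 (-6.61e-06) and Bank1 (-4.18e-05), both lower in high-fat, are smaller in size than that. Over the 8 arrays the median r with the cytotoxic level was 0.884 for monocyte, 0.287 for neutrophil, -0.0529 for T cell, -0.100 for B cell, -0.127 for erythroid and -0.625 for platelet markers, against -0.0305 over all other genes. Without high-fat replicate 4 it was 0.315 for monocyte, 0.267 for neutrophil, 0.482 for T cell, 0.535 for B cell, 0.179 for erythroid and 0.437 for platelet markers, against 0.0391. The other natural killer receptors had 0.724, and 0.294 without that animal, and the transcription factors 0.742 and 0.492. These r are on the deposited scale too, and those of genes that range less than the array medians depend on the scaling.

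**Figure D5:**
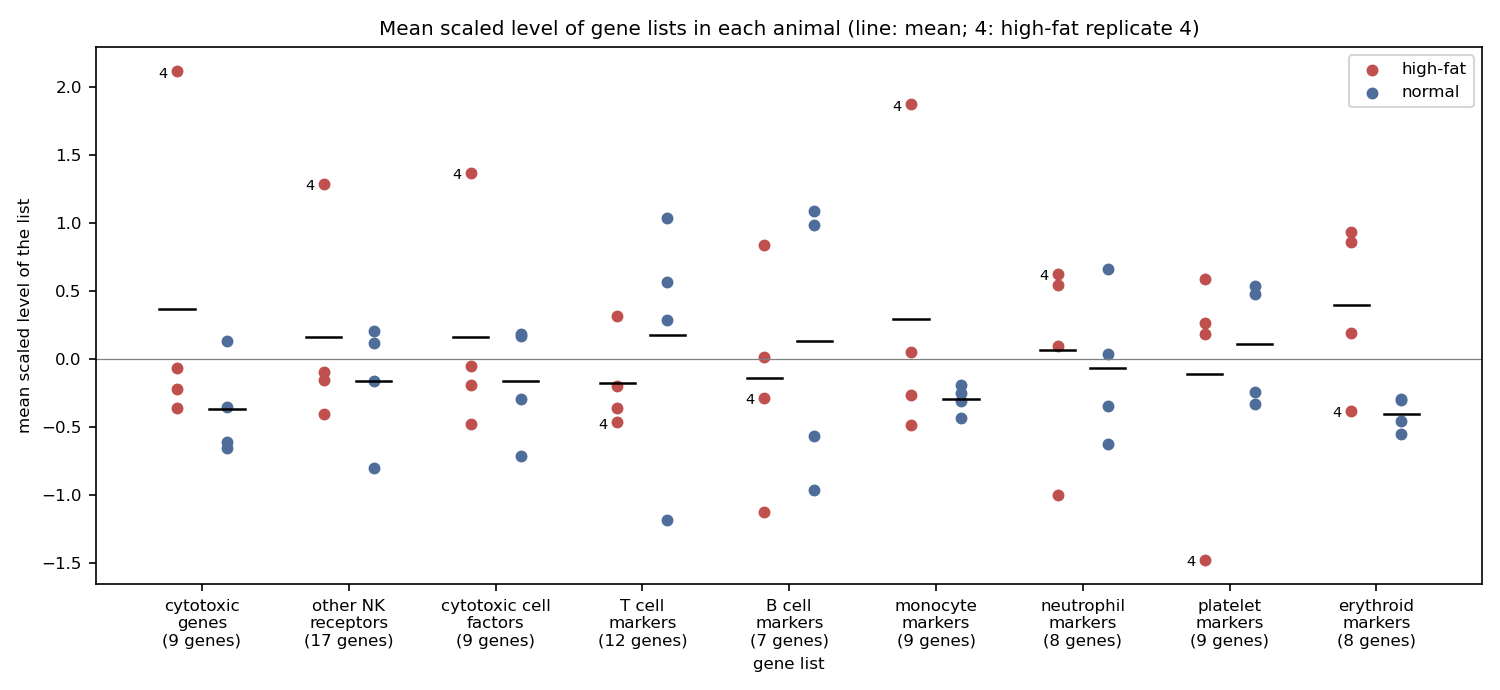
Mean scaled level of the cytotoxic genes, of 2 related lists and of markers of 6 blood cell types in each animal (points, with the mean of 4 animals as a line and high-fat replicate 4 marked 4). That animal stands at 2.12 on the cytotoxic genes and 1.87 on monocyte markers, but at -0.465 on T cell markers and -1.48 on platelet markers.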

How the data were processed

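Levels are the table the authors deposited, which reads as log2 intensity. Background correction, normalization, probe summary and log base are not given in the sources used here. Per the labels' protocols, 200 ng of total RNA was labelled for 3' arrays. The 57 control probe sets were left out. The platform annotation gave 1 symbol to 20826 probe sets, several to 436 and none to 9780, and all 9 genes matched RefSeq (GRCr8) by gene number. Each probe set was fitted with limma 3.58.1 in R 4.3.3 (lmFit, eBayes, two-sided, no covariates), adjusted by Benjamini-Hochberg over 31042 probe sets, threshold 0.05. The exact permutation test used all 70 assignments, and correlations all 40320 pairings, adjusted over 36 pairs. The fit was tested on simulated data. The number of arrays limits the precision, and signal over background was not analysed here. Groups and replicate numbers came from the titles, which call the arrays biological replicates. Members, lists and tests were chosen with earlier results of these data known. All members are named, and of each other list the 2 with the smallest limma p. Further genes of lists were named after their values were seen. Genes most alike are the 5 with the highest r. A list gene is represented by its brightest probe set. The scaled level sets each gene to mean 0 and SD 1 over the arrays.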

Additional observations from a re-analysis of the deposited data

Results flagged for a closer look

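Several values stood far from the others of their diet, by the gap to the nearest animal divided by the range of the 4 animals. About 1 in 20 such groups passes by chance, and these genes are not independent. High-fat replicate 4 stood apart in this way for Gzma (0.836), both probe sets of Gzmb (0.877 for the brighter and 0.980 for the dimmer), Gzmk (0.8995), Gzmm (0.941), Prf1 (0.857) and Nkg7 (0.861), and for the mean scaled level of the 9 genes (0.881). Normal replicate 4 stood apart for Gzma (0.843). Monocyte markers were also highest in high-fat replicate 4, at a mean scaled level of 1.87. Their part in these values was not tested.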

How the results depend on the processing

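No cytotoxic probe set passed its threshold under any alternative: the replicate block, weighted arrays, a robust trended eBayes, the brighter probe sets, centring, quantile normalization on top and leaving out each animal. The exact permutation test, also at 0, could pass only if most of the table reached its smallest p. Of the 110 differences that a setting could move, 108 kept their sign. Klrb1a ranged from -0.00219, without high-fat replicate 4, to 0.00455 when animals were left out, and Klrk1 turned to -4.87e-05 with centring, which lowers every difference by 6.60e-05 and puts 15544 of 31042 probe sets wholly below in high-fat. Over the whole table quantile normalization called 32 probe sets, against 0 in the deposited scale. Adjusted limma p of the probe sets ranged from 0.191, with centring, to 1. The median in within-group SDs was 0.216 to 0.962 when animals were left out, the smallest without high-fat replicate 4. With the replicate block it was 1.11, but there the divisor was the residual SD after diet and replicate number. The differences themselves did not change with the block, so 1.11 is on another scale. Same-numbered animals of the 2 diets deviated together with r = -0.125, 0.205, 0.368 and 0.144 for numbers 1 to 4. The array that correlated best had the same number for 5 of 8 arrays. The labels state no pairing and r was negative for number 1, and the main test did not treat the numbers as pairs. Whether same-numbered animals shared their handling was not tested. The replicate block called 0 of the 10 probe sets. Probe sets without overlap numbered 0 to 4 when animals were left out. The median r between genes was 0.608 to 0.967 when animals were left out and 0.762 with Spearman rho. Pairs passing numbered 27 on r, 14 on rho and 3 without high-fat replicate 4, the last chosen after seeing the data. The dimmer probe set of Gzmb is not among the brighter probe sets and has no value there. No floor on linear values was run, since the deposited values read as logs.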
